A study of Mus musculus with 23 samples.

Results

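The effect of testes against ovaries on gene expression was examined in the hippocampus of mice that all carried 2 X chromosomes. The libraries were chosen by their labels for sex chromosomes and gonad: 6 libraries from XX animals with testes (XXM) were set against 5 from XX animals with ovaries (XXF), 11 of the 23 libraries in the series. The comparison ran over all 13766 genes of the deposited table. The FCG cross of the labels, on a C57Bl/6J background strain, uncouples the gonad from the sex chromosomes. Each library came from the hippocampus of a different animal of about 12 months. Animals were caged by the appearance of the genitalia, so cage and gonad cannot be told apart, nor can the gonad and the transgene that forms it. The other 12 libraries came from XY animals with testes (XYM, 6) or ovaries (XYF, 6), and are used where the gonad effect in XX animals is set beside that in XY animals.

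In this cross the testis-determining gene Sry is missing from the Y chromosome and is carried as an autosomal transgene, so XX animals with the transgene form testes. Both XX groups therefore lack a Y chromosome, while XXM animals carry the transgene and the hormones of a testis. Oestradiol, progesterone and testosterone act in the brain mainly through nuclear receptors, which bind DNA at response elements, and the hippocampus also expresses the receptors of adrenal steroids at high levels.

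The libraries held 10257790 to 36078235 counts in XXF and 21143437 to 32393137 in XXM, so XXM libraries were on average deeper. Levels are given in CPM, which are counts scaled to a common library total after trimmed-mean normalization, and differences as log2 fold changes of XXM over XXF from edgeR. Xist, made by the inactive X chromosome, was at 936 to 1468 CPM in the 11 XX libraries, and 4 Y genes (Uty, Kdm5d, Ddx3y and Eif2s3y) reached at most 0.437 CPM there against at least 12.8 CPM in XY libraries. XYF replicate 4 had Xist at 94.1 CPM, above the 2.86 CPM reached by any other XY library, and enters only the values of XY animals and the shared estimate of spread. The tissue label was checked by marker sums: 10 dentate gyrus markers summed to 487 to 705 CPM, 7 CA1 markers to 730 to 825 CPM and 12 CA2 and CA3 markers to 399 to 467 CPM in the XX libraries. None of 8 hypothalamus and pituitary markers was among the genes kept in the table. Measured markers of the thalamus and habenula (8) summed to 96.3 to 167 CPM, and those of the striatum (6) to 89.5 to 158 CPM. The sums therefore do not show that neighbouring tissue was absent. In whole tissue, fewer cells of a type and less RNA per cell cannot be told apart.

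No gene passed the test between XXM and XXF. In the quasi-likelihood test of edgeR, adjusted by Benjamini-Hochberg over 13766 genes, 0 genes had an adjusted p under 0.05 (0%), and the smallest adjusted p was 0.276. At an unadjusted p under 0.05 there were 1061 genes (7.71%), 549 higher in XXM (3.99%) and 512 lower (3.72%). DESeq2 called 1 gene, Fam43b, and limma voom called 0, with 1084 and 1091 genes at an unadjusted p under 0.05. The 2 groups did not overlap for 105 genes (0.763%), 47 higher in XXM (0.341%) and 58 lower (0.421%).

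The intervals show how large a difference the 11 libraries leave possible. The median 95% interval reached 0.19 to either side of the log2 estimate. For 87.8% of genes the whole interval lay within 1.5-fold of no change, and for 97.3% within a log2 fold change of 1. The deposited table kept genes with at least 20 counts in every library of 1 group or more, a filter met in all 4 groups by 12705 genes, only in XXM by 245 and only in XXF by 2. Trimmed-mean normalization centres the bulk of the estimates near 0: 50.3% were above 0 and their median was 0.001. An absolute log2 fold change of at least 1 was reached by 49 genes.

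Genes with the smallest p-values are described first, although none passed. Among the 15 such genes that were lower in XXM, the log2 fold changes ran from -1.27 to -0.25 and the unadjusted p from 2.01e-05 to 0.00131. The 2 groups did not overlap for 8 of the 15, against 0.421% of all genes. The 15 were picked by p from the same values, so this is not separate evidence. All 15 kept their sign in the 23 alternative fits, but these reuse the libraries by which the genes were picked, so a change was unlikely. In XY animals 14 had the same sign.

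Fam43b (chr4:138394092-138396458, minus strand, mm10) led this list. Its levels in the 5 XXF libraries were 22.7, 31.2, 23.5, 23.2 and 23.3 CPM, against a lowest, median and highest of 15.8, 18.2 and 19.5 CPM in XXM. Every XXM library lay below every XXF library, and XXF replicate 2, the shallowest XX library, stood highest. The log2 fold change was -0.47 ± 0.09 (SE) with an adjusted p of 0.276 by edgeR, and -0.47 with an adjusted p of 0.00724 by DESeq2. Across the edgeR, DESeq2 and limma alternatives its adjusted p ran from 0.00724 to 0.9999, and leaving out 1 XX library gave log2 fold changes from -0.51 to -0.39. In XY animals the gonads differed by -0.10.

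Gm4070, which encodes a very large interferon-inducible GTPase, was at 5.91, 6.69, 6.96, 5.94 and 8.53 CPM in XXF and at 3.65 to 5.21 CPM in XXM, with a median of 4.29 CPM. The groups did not overlap, and the log2 fold change was -0.63 ± 0.14 with an edgeR adjusted p of 0.550. It is the only one of these 30 leading genes that was called in XY animals, where testes also had the lower level (log2 fold change -0.77, adjusted p 0.00493). Its family holds near-identical copies, so its reads may be split among them.

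H2-Q5 is a class I major histocompatibility complex (MHC) gene of the Q region. Its 5 XXF values were 1.73, 2.26, 1.32, 1.20 and 1.61 CPM, and its XXM values had a lowest of 0.504, a median of 0.664 and a highest of 0.799 CPM. No XXM library reached the XXF range. The gene met the filter of the deposited table only in XXF, the group where it was high, so its separation is partly set by that filter. Its lowest count was 20 in XXF and 14 in XXM, and it has close copies. Its log2 fold change was -1.27 ± 0.29 (adjusted p 0.550), beside -1.01 in XY animals (adjusted p 0.172).

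Nsun5, a methyltransferase of ribosomal RNA, was at 9.10 to 15.5 CPM in XXF and 7.16 to 10.7 CPM in XXM, with overlap between the groups (log2 fold change -0.50 ± 0.13). Kcnh4, a voltage-gated potassium channel, had -1.06 ± 0.27, and its XXF values spread from 2.33 to 10.7 CPM. A330093E20Rik had -0.99 ± 0.25, with 9.05 CPM in XXF replicate 2 and 2.63 to 5.47 CPM in the other XXF libraries. Smaller differences without overlap were seen for Gtpbp3, which modifies mitochondrial transfer RNA (-0.33 ± 0.09), for Dph2 of diphthamide synthesis (-0.30 ± 0.08) and for the Notch ligand Jag2 (-0.30 ± 0.08). Gm13306, which has near-identical copies, also had no overlap (-0.42 ± 0.11). The remaining genes of the 15 were the glycosyltransferase Gcnt4, the kinase Hipk4, Trabd, Dlk2 and the guanylate-binding protein Gbp4. They had log2 fold changes between -0.79 and -0.25, and only Gbp4 showed no overlap.

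How strand entered the counting is not stated in these sources. Fam43b, Gm4070, Nsun5, A330093E20Rik, Gcnt4 and Dlk2 each overlap a gene on the other strand in GENCODE M21. The libraries were strand-specific, so reads of the partners would be mixed only if strand was ignored in the counting. The same holds for Xist and, among genes named below, for Tgfb2, Zc3h6, 1700040L02Rik, Xrcc4, Epyc, Mpp4, Myo1h, Msmp, Fam151a, Dhx58, Cd55, Hydin, Dsp, Map3k15, Gpr17, Alas2, Bdnf, Dbp, Mt2 and Cdkn1a.

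Among the 15 genes with the smallest p that were higher in XXM, log2 fold changes ran from 0.27 to 1.20 and p from 0.000159 to 0.00161. The groups did not overlap for 7 of the 15, against 0.341% of all genes. The 15 were picked by p from the same values, so this is not separate evidence. The 14 of them that were followed through the 23 alternative fits each kept their sign, which was likely because these fits reuse the same libraries. In XY animals 11 of the 15 had the same sign and 0 were called.

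Lgr6 (chr1:134986353-135105276, minus strand, mm10), a receptor for R-spondins that raise Wnt signalling, was at 1.47, 1.57, 2.03, 1.48 and 1.37 CPM in XXF and 2.05, 2.60 and 2.81 CPM (lowest, median, highest) in XXM. The groups met without overlap. Its log2 fold change was 0.68 ± 0.16 in XX animals (adjusted p 0.617) and 0.63 in XY animals (adjusted p 0.113), a like size in both. Lgr6 met the filter of the deposited table only in XXM and XYM, the groups where it was high. Its separation and the likeness of these estimates are therefore partly set by that filter.

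Tgfb2, a ligand of the transforming growth factor family, was at 57.4, 54.2, 42.9, 53.8 and 60.1 CPM in XXF against 59.3 to 85.0 CPM in XXM, where 1 XXM library lay within the XXF range. Its log2 fold change was 0.37 ± 0.09 and that of Pon2, a paraoxonase, was 0.36 ± 0.09, both with overlap. Lect1, which encodes chondromodulin, was at 0.787 to 1.55 CPM in XXF and 2.06 to 3.82 CPM in XXM, without overlap (1.20 ± 0.31). Lect1 met the deposited filter in XXM but not in XXF, so its separation is partly set by that filter. Hdc, the enzyme that makes histamine, was also separate in the 2 groups, at 1.26 to 2.75 and 2.80 to 4.63 CPM (0.91 ± 0.24). Osmr, the oncostatin M receptor, had 0.41 ± 0.11 and overlapped through XXF replicate 1.

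Further genes of this list encode parts of cilia or act on microtubules. Ift74 of intraflagellar transport differed by 0.35 ± 0.10 without overlap, the ciliary dynein docking gene Armc4 by 1.11 ± 0.31, and Agbl2, a carboxypeptidase that trims tubulin, by 0.98 ± 0.27. Armc4 and Agbl2 met the deposited filter in XXM but not in XXF, so their differences are partly set by that filter. The log2 fold change of Agbl2 was 0.60 with a covariate for choroid plexus RNA, described below, and that of Armc4 was 0.88. The DNA repair factor Xrcc4 (0.31 ± 0.09) and the zinc finger gene Zfp105 (0.51 ± 0.14) had no overlap, and Zc3h6, 1700040L02Rik and Arl15 did overlap.

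**Figure D1:**
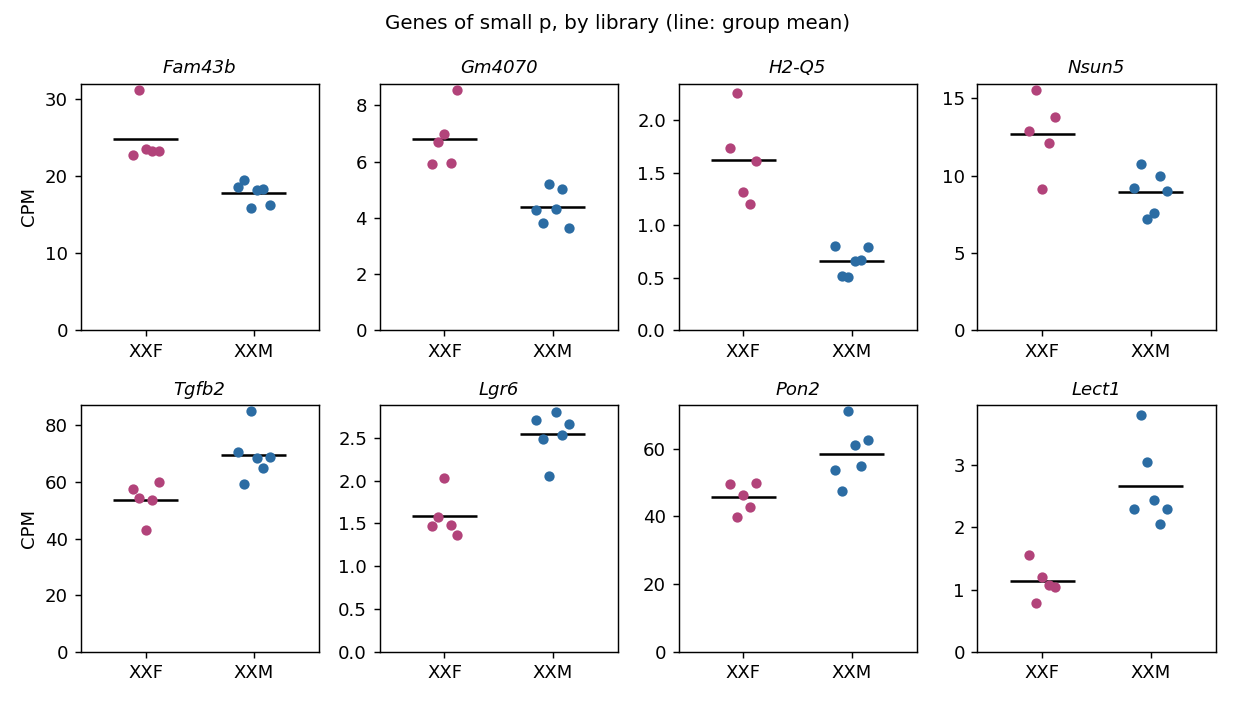
Levels in CPM (vertical axis, from 0) of 8 genes among those with the smallest p, with 1 point for each library and a line at the group mean. In Fam43b, Gm4070, H2-Q5, Lgr6 and Lect1 the 6 XXM points and the 5 XXF points do not overlap, and in Nsun5, Tgfb2 and Pon2 they do. Lgr6 and Lect1 met the deposited filter in XXM but not in XXF, and H2-Q5 met it only in XXF.

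Receptors for gonadal and adrenal steroids did not pass the test. Of 9 listed receptors 8 were in the table: 6 had a positive and 2 a negative log2 fold change, the median was 0.04, and 1 had an unadjusted p under 0.05. That gene was Nr3c2, the mineralocorticoid receptor, at 138, 142, 126, 158 and 168 CPM in XXF and 158, 165 and 174 CPM (lowest, median, highest) in XXM. The groups overlapped, and the log2 fold change was 0.18 ± 0.07 in XX animals (adjusted p 0.633) and 0.20 in XY animals.

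Esr1, the oestrogen receptor alpha gene, was low in both groups, at 1.38 to 3.20 and 1.31 to 3.09 CPM, and the 95% interval of its log2 fold change ran from -0.52 to 0.44. The progesterone receptor Pgr lay at 25.1 to 37.1 and 27.0 to 32.2 CPM with an interval from -0.22 to 0.17. The glucocorticoid receptor Nr3c1 (interval -0.04 to 0.18), the membrane progesterone receptor components Pgrmc1 (-0.14 to 0.14) and Pgrmc2 (-0.09 to 0.14), and the membrane oestrogen receptor gene Gpr30 (-0.28 to 0.37) spanned 0 as well. For Esr1, Nr3c2, Pgr, Nr3c1, Pgrmc1, Pgrmc2 and Gpr30 the intervals stayed within 1.5-fold, and that of Esr1 was the widest of them.

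Of 13 measured enzymes of steroid metabolism, of 19 listed, 9 were higher and 4 lower, with a median of 0.08. At an unadjusted p under 0.05 there was 1 in each direction (3.99% of all genes higher, 3.72% lower), and 1 did not overlap (0.763% of all genes). Cyp46a1, which turns brain cholesterol into 24-hydroxycholesterol, was at 140, 147, 146, 136 and 133 CPM in XXF and 108, 126 and 131 CPM in XXM. All XXM values lay lower (log2 fold change -0.18 ± 0.06, adjusted p 0.624). Cyp7b1, an oxysterol and neurosteroid hydroxylase, was at 21.8 to 26.5 CPM in XXF and 25.2 to 30.5 CPM in XXM (0.24 ± 0.10).

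Genes that oestrogen or androgen drive in other tissues gave medians slightly above the 0.001 of all genes, of which 50.3% were higher. Of 9 measured oestrogen-responsive genes 8 were higher with a median of 0.10, of 7 androgen-responsive genes 4 were higher with a median of 0.05, and 0 of either list had an unadjusted p under 0.05. The 11 receptor chaperones and coregulators had a median of -0.03. Among 5 measured receptors of other reproductive and growth hormones, Prlr, the prolactin receptor, was at 43.3 CPM in XXF replicate 1 and 6.31 to 9.01 CPM in the other XXF libraries. Its estimate of 1.47 ± 0.81 became 2.47 without XXF replicate 1 and -0.03 without all libraries rich in choroid plexus RNA.

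Genes induced by interferon were spread around a median slightly below 0 in XX animals. Interferons bind cell-surface receptors and act through STAT factors, and their targets include antiviral proteins, GTPases that attack vacuoles, and the MHC class I pathway, which shows peptides to T cells. Their promoters often hold an interferon-stimulated response element (ISRE), searched here as GAAANNGAAA on both strands, or a gamma-activated site (GAS), searched as TTCNNNGAA. In the 250 bases before each start (RefSeq, GRCm38.p6) the ISRE letters were in 2.98% of 32851 windows and the GAS letters in 7.02%, and among the 13988 windows of genes in the table in 2.47% and 5.80%. Among the measured GTPases 8 of 9 windows held the ISRE letters (88.9%), among the interferon response genes 8 of 21 (38.1%), and among the 29 windows of the 30 leading genes 1 (3.45%). Of those 30 genes 22 had a window. A match describes letters and is not a measured binding site, and no match says only that these letters are not in the window.

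The 4 windows below are shown because these genes were among those of smallest p in their lists and hold the ISRE letters. Each is written 5′ to 3′ on the strand of the gene and ends at the base before the start. Capitals mark ISRE matches on either strand and, in Gbp7, also GAS matches. They lie at chr19:34640639-34640888 on the plus strand (Ifit1), chr4:156200819-156201068 on the minus strand (Isg15), chr3:142559794-142560043 on the plus strand (Gbp3, the first of its windows) and chr3:142530086-142530335 on the plus strand (Gbp7).
Ifit1: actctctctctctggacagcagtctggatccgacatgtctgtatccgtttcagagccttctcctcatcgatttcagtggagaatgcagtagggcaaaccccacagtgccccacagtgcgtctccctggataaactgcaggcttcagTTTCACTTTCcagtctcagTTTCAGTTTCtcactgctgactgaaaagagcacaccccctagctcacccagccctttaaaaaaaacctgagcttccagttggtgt
Isg15: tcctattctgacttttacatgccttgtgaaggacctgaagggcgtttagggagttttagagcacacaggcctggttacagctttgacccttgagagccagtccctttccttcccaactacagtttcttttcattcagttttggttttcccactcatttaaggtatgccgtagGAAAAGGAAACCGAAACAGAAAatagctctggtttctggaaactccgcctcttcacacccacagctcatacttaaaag
Gbp3: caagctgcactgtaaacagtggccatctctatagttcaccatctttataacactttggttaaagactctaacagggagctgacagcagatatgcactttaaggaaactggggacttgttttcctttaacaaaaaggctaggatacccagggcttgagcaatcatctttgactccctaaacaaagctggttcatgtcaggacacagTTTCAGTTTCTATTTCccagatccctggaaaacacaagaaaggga
Gbp7: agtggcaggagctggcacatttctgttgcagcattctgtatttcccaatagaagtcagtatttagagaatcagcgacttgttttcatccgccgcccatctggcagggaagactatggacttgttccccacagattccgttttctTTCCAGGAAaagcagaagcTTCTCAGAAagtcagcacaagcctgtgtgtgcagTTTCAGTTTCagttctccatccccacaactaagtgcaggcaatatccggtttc

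Ifit1, an antiviral RNA-binding protein, was at 3.38, 5.21, 3.78, 3.26 and 2.09 CPM in XXF and 1.59, 2.28 and 3.16 CPM in XXM. The groups overlapped, with a log2 fold change of -0.58 ± 0.25 (adjusted p 0.633). Among XY animals it ranged over 6.52 to 14.2 CPM with ovaries and 2.30 to 6.10 CPM with testes, and its log2 fold change there was -1.74 (adjusted p 0.000395). XYF was thus the group with the high values, and no library of the other 3 groups exceeded 6.10 CPM. Ifit3 (-0.49 ± 0.19), the ubiquitin-like modifier Isg15 (-0.47 ± 0.21) and Dhx58, a regulator of RNA sensing (-0.47 ± 0.22), were the other 3 with an unadjusted p under 0.05.

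Over the 26 measured interferon response genes of 31 listed, 9 were higher and 17 lower in XXM, 4 had an unadjusted p under 0.05, all lower, against 3.72% of all genes, and 0 passed. The median log2 fold change was -0.10 in XX animals and -0.78 in XY animals, where 26 of 26 were lower and 10 passed. Of the 26, 4 met the deposited filter only in XY groups, so their XY values may be partly set by that filter. Over all genes the XY comparison called 31 (0.225%).

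GTPases induced by interferon had 9 of 13 members lower in XXM, with a median of -0.26. Of the 13, 5 were lower at an unadjusted p under 0.05 (3.72% of all genes) and 3 were lower without overlap (0.421%). The 3 were Gm4070, Gbp4 and Gbp7. Gbp7 was at 6.89, 7.08, 5.98, 6.79 and 6.92 CPM in XXF and 3.69, 5.32 and 5.72 CPM in XXM (log2 fold change -0.41 ± 0.12, adjusted p 0.624). Gbp4 was at 4.04, 3.74, 2.74, 2.52 and 3.14 CPM against 1.29, 1.88 and 2.44 CPM (-0.79 ± 0.21), and the difference in XY animals was -0.77. Gbp3 had -0.35 ± 0.14, with overlap. The Gbp genes are near copies of each other, so the split of reads between them is uncertain. In XY animals 13 of 13 were lower, with a median of -0.77 and 8 called (0.225% of all genes).

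Antigen presentation by MHC class I had 14 of 20 measured genes lower, with a median of -0.15. At an unadjusted p under 0.05 there were 4 lower (3.72% of all genes) and 1 higher (3.99%). H2-Q7 was at 2.09, 1.18, 1.43, 0.931 and 1.77 CPM in XXF and 0.538, 0.648 and 0.912 CPM in XXM, without overlap (-1.06 ± 0.30, adjusted p 0.622). It met the deposited filter only in XYF, and its lowest count was 12 in XXF and 13 in XXM. The classical genes H2-D1 (-0.36 ± 0.14) and H2-K1 (-0.36 ± 0.14) overlapped between groups. H2 genes share sequence, which makes their single values uncertain. Pdia3, a chaperone of the peptide-loading complex, was the member that was higher (0.23 ± 0.09). In complement, 9 of 15 were higher with a median of 0.07. C3, the central component, was at 3.42, 4.92, 1.15, 4.68 and 5.31 CPM in XXF and 4.86, 6.51 and 7.81 CPM in XXM (0.74 ± 0.27, adjusted p 0.629), and the regulator Cd55 differed by 0.56 ± 0.21. The log2 fold change of Cd55 was 0.18 with the choroid plexus covariate.

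The interferon values moved with choroid plexus RNA, described below. With a covariate for the choroid plexus score the median of the interferon response list was -0.32, with 3 of 26 higher and 6 lower at an unadjusted p under 0.05, and that of the GTPases -0.46, with 8 lower. Without the libraries rich in choroid plexus RNA, which leaves 4 XXF and 2 XXM libraries, the medians were -0.29 and -0.47. The part that choroid plexus RNA plays in them was not tested otherwise, and no gene passed in either fit.

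**Figure D2:**
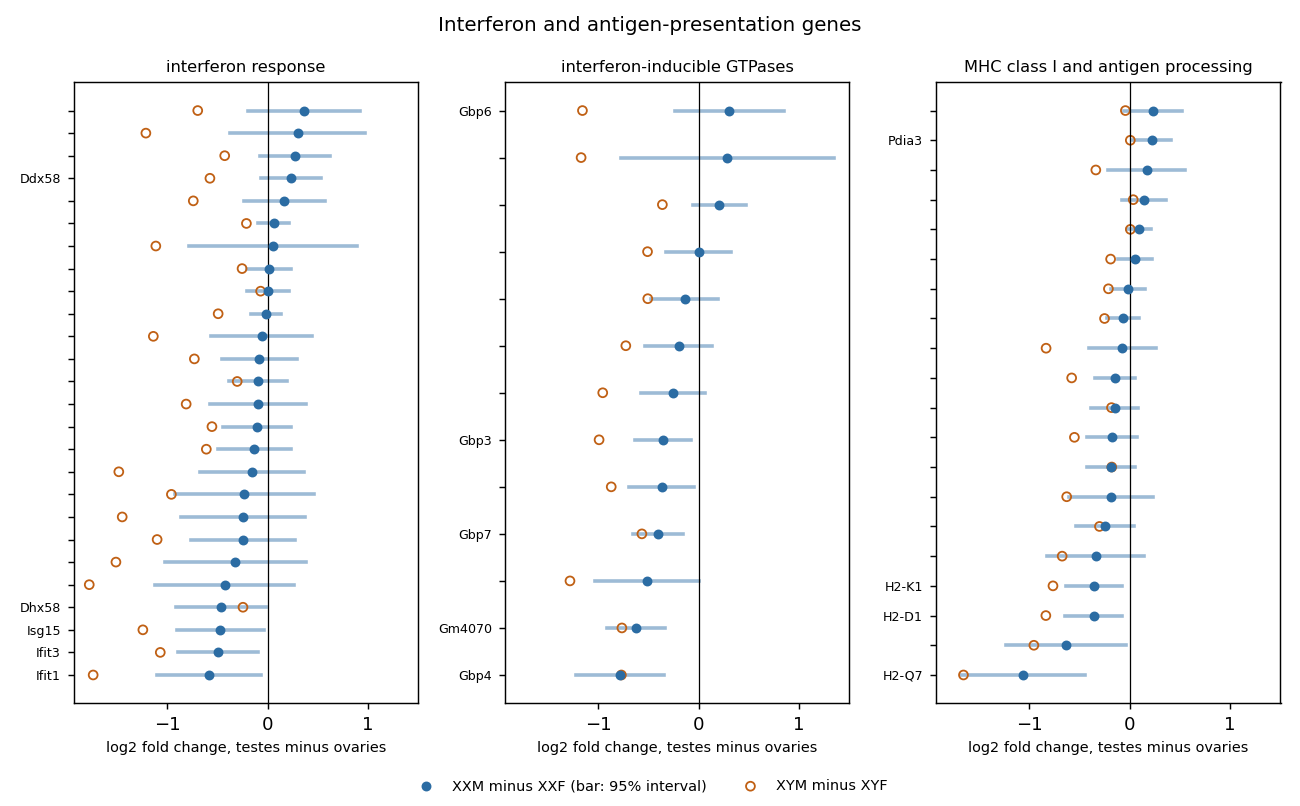
Log2 fold change of testes over ovaries (horizontal axis) for each measured gene of 3 lists, in XX animals (filled points with 95% intervals) and XY animals (open circles), with labels for genes the text describes. In XX animals 17 of 26, 9 of 13 and 14 of 20 genes lie below 0, and in XY animals all of the 26 and 13 genes of the first 2 lists do.

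Whether the gonad effect in XX animals differed from that in XY animals was tested as 1 contrast. No gene passed (0%, smallest adjusted p 0.670 by edgeR), and 444 genes had an unadjusted p under 0.05 (3.23%). DESeq2 and limma voom called 0 as well, with 452 and 415 genes at an unadjusted p under 0.05. Among the interferon response genes 19 of 26 had an unadjusted p under 0.05 for the difference, as did 8 of 13 GTPases and 6 of 20 MHC class I genes. Of these lists, 4 interferon response genes and 2 MHC class I genes met the deposited filter only in XY groups. Their differences may be partly set by that filter. Of the 31 genes called in XY animals, all lower with testes, 29 were also lower in XXM, where 50.3% of all genes were higher. In XX animals 11 of the 31 had an unadjusted p under 0.05 (7.71% of all genes), and 0 passed there. The interferon response, GTPase, MHC class I and red cell lists held 10, 8, 6 and 4 genes called in XY animals. Most of the 31 are thus genes counted in those lists as well, and are not separate evidence. Leaving out XYM replicate 1 called 3 genes for the difference, Gbp6, Oasl2 and Bst2, and leaving out XYF replicate 1 called 1 gene. Oasl2 and Bst2 were named after their values were seen.

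Tm7sf2, a sterol reductase of cholesterol synthesis, was at 12.2 to 16.4 CPM in XXF and 10.6 to 12.7 CPM in XXM, against 11.7 to 13.8 CPM in XYF and 14.4 to 16.7 CPM in XYM. Its log2 fold changes were -0.27 and 0.25, opposite in sign, with an unadjusted p of 9.73e-05 for the difference. Gbp6 had 0.30 in XX and -1.16 in XY animals, and the RNA sensor Ddx58 had 0.23 and -0.58.

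Genes of red blood cells also had their highest group medians in XYF. All 4 measured (Hba-a1, Hba-a2, Beta-s and Alas2) were lower in XXM, by -0.29 to -0.15, and 0 had an unadjusted p under 0.05. In XY animals all 4 were called (0.225% of all genes), with a median of -1.12. All 4 had an unadjusted p under 0.05 for the difference (3.23% of all genes). Alas2, the first enzyme of haem synthesis in red cells, was at 2.495 to 7.01 CPM in XXF, 2.95 to 6.86 CPM in XXM, and XYF reached 6.67 to 19.3 CPM. The haemoglobin genes are near copies of each other.

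Genes of the choroid plexus, which lies in the ventricles beside the hippocampus and makes cerebrospinal fluid, held the largest estimates above 0. Ttr, its main secreted protein, which was chosen for naming with its values known, was at 1670, 120, 40.5, 68.7 and 34.7 CPM in XXF. In XXM it was at 1814, 2010, 2220 and 1668 CPM in replicates 1, 3, 4 and 5 and at 82.4 and 86.5 CPM in replicates 2 and 6. The XX libraries thus fell into 5 with Ttr above 1000 CPM, 1 XXF and 4 XXM, and 6 at or below 120 CPM. All 15 measured choroid plexus genes of 21 listed were higher in XXM, with a median of 1.55, but intervals were wide and 2 had an unadjusted p under 0.05. The summed level of the 15 ran from 308 to 3420 CPM in XXF and from 417 to 4944 CPM in XXM.

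The potassium channel Kcnj13 (2.14 ± 1.31), the water channel Aqp1 (1.96 ± 1.20), Sostdc1 (1.94 ± 0.81), Col8a1 (1.88 ± 1.07) and the folate receptor Folr1 (1.87 ± 1.09) were the 5 genes with the largest estimates in XXM among genes averaging at least 1 CPM. Each overlapped between groups. Kcnj13, Aqp1, Col8a1 and Folr1 met the deposited filter only in XXM, as did 5 of the 15 choroid plexus genes. Without XXF replicate 1, the Ttr-rich XXF library, the 5 estimates were 4.66, 4.14, 3.11, 3.84 and 4.07, the median of the 15 was 2.81, and 0 genes passed. Without all Ttr-rich libraries the estimates were -0.03, 0.10, 0.69, 0.32 and 0.52, and the median of the 15 was 0.11 with 10 of 15 higher. The unadjusted count over all genes was 225 in that smaller fit and 817 with the Ttr class as a term. With a covariate for the choroid plexus score it was 802, and 0 genes passed in any of the 3.

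Ependymal cells line the ventricles and carry motile cilia. All 11 of their marker genes were higher in XXM, with a median of 0.58 and 6 at an unadjusted p under 0.05 against 3.99% of all genes. Dynlrb2, a dynein light chain, was at 2.53, 1.87, 0.823, 0.876 and 2.25 CPM in XXF and 2.66, 3.24 and 4.17 CPM in XXM. The groups did not overlap, and the interval of the log2 fold change ran from 0.31 to 1.69 (adjusted p 0.624). Mlf1 (0.96 ± 0.39), Hydin of the ciliary central pair (0.58 ± 0.26) and 1700009P17Rik (0.73 ± 0.34) overlapped. Dynlrb2, Mlf1 and 1700009P17Rik met the deposited filter in XXM but not in XXF, so their differences are partly set by that filter. The ependymal sum was 29.7 to 71.9 CPM in XXF and 54.7 to 89.3 CPM in XXM. All 11 stayed higher with a choroid plexus covariate (median 0.32), with the Ttr class as a term (0.39) and without the Ttr-rich libraries (0.23), with 2 at an unadjusted p under 0.05 each time. In XY animals the median was 0.03.

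**Figure D3:**
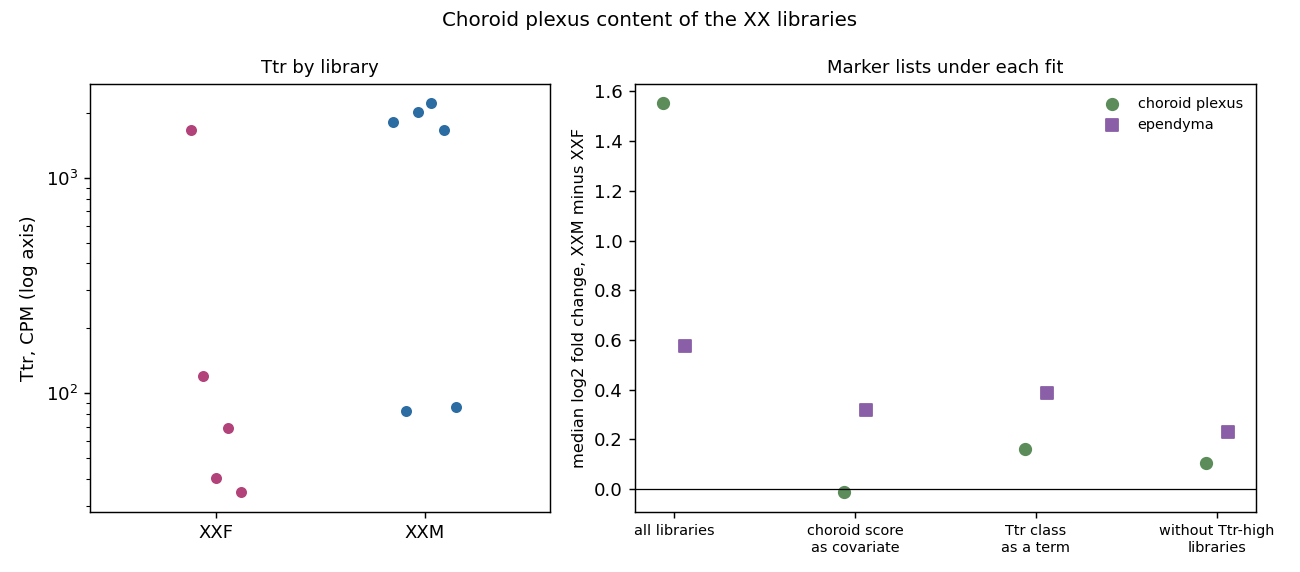
Left, Ttr in CPM on a log axis for each XX library, where 1 of 5 XXF and 4 of 6 XXM libraries lie above 1000 CPM. Right, the median log2 fold change of 15 choroid plexus genes (circles) and 11 ependymal genes (squares) under 4 fits. The choroid median falls from 1.55 to between -0.01 and 0.16, and the ependymal median stays between 0.23 and 0.58.

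Among markers of hippocampal neurons those of the dentate gyrus lay highest. Of 10, 9 were higher in XXM, with a median of 0.19, 4 were higher at an unadjusted p under 0.05 (3.99% of all genes), 0 passed, and the median in XY animals was 0.19 as well. Glis3, a transcription factor of granule cells in this list, was at 7.82, 8.65, 5.04, 9.53 and 9.90 CPM in XXF and 9.95, 11.2 and 12.9 CPM in XXM, without overlap by a narrow margin (0.47 ± 0.19). Tdo2 (0.47 ± 0.19), the desmosomal gene Dsp (0.35 ± 0.14) and Stxbp6 (0.22 ± 0.09) overlapped. The median was 0.14, with 1 gene at an unadjusted p under 0.05, when the library total was a covariate, and 0.08 without the Ttr-rich libraries. CA1 markers had a median of -0.03 with 3 of 7 higher. CA2 and CA3 markers had 0.04 with 8 of 12 higher, where Map3k15 reached 0.68 ± 0.30, and 0.20 with the choroid plexus covariate.

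Other cell types and regions had medians between -0.10 and 0.12. The medians were -0.02 for 8 neuronal genes, 0.04 for 8 genes of adult neurogenesis, 0.02 for 20 microglial genes, 0.04 for 16 astrocyte genes and 0.01 for 18 myelin genes. They were -0.03 for 6 oligodendrocyte precursor genes, -0.01 for 14 endothelial genes, -0.10 for 10 mural cell genes and -0.08 for 13 fibroblast genes. Markers of neighbouring regions gave 0.12 for 8 thalamic and 0.10 for 6 striatal genes. Des, desmin of mural cells, had the lowest estimate of its list, without overlap (-0.72 ± 0.24, adjusted p 0.624). It was at 2.18, 1.48, 1.54, 1.89 and 1.69 CPM in XXF and 0.504, 1.18 and 1.42 CPM in XXM. Des met the deposited filter only in XYF and XYM, with a lowest count of 15 in XXF and 15 in XXM. Without the Ttr-rich libraries its log2 fold change was -0.41. The astrocyte transporter Slc4a4 (0.21 ± 0.09), Gpr17 of oligodendrocyte precursors (-0.14 ± 0.06) and endothelial Esam (-0.22 ± 0.10) had unadjusted p under 0.05 and overlapped.

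Most synaptic and signalling lists also had medians within 0.1 of 0. Of 33 glutamate receptor and scaffold genes 21 were higher with a median of 0.02. GABA signalling (23 genes) had a median of 0.03 and neurotrophins and growth factors (12) 0.08. Neuropeptides lay further off, with 10 of 14 lower, a median of -0.13 and 0 at an unadjusted p under 0.05. Bdnf, a neurotrophin of activity-dependent plasticity, was at 42.7 to 51.1 CPM in XXF and 46.2 to 60.5 CPM in XXM, with an interval from -0.01 to 0.32. The 5 measured X-linked genes known to escape X inactivation had a median of 0.06.

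Lists that respond to time of day, activity or stress leaned lower in XXM. Of 18 clock genes 12 were lower with a median of -0.06. Dbp, an output gene of the clock, was at 47.9, 48.1, 43.2, 31.9 and 29.7 CPM in XXF and 22.1, 29.9 and 37.0 CPM in XXM, with overlap (-0.42 ± 0.15, adjusted p 0.624). Cry1 had -0.25 ± 0.11 and Per2 -0.24 ± 0.12. Of 20 immediate early genes 16 were lower with a median of -0.11. Ier5 was at 47.3, 62.8, 56.0, 49.7 and 49.1 CPM in XXF and 39.4, 42.9 and 45.9 CPM in XXM, without overlap (-0.30 ± 0.09), and Egr1 had -0.34 ± 0.19. Of 19 glucocorticoid-responsive genes 16 were lower with a median of -0.12, among them the metallothionein Mt2 (-0.32 ± 0.15) and the cell cycle inhibitor Cdkn1a (-0.31 ± 0.17).

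Of 81 ribosomal protein genes 75 were lower in XXM, with a median of -0.09, and 2 were lower at an unadjusted p under 0.05 (3.72% of all genes). Rpl36, the one of smallest p, had -0.32 ± 0.11. Without the Ttr-rich libraries 53 of the 81 were higher and the median was 0.04. Of 88 nuclear genes of oxidative phosphorylation 72 were lower with a median of -0.06, and Atp5e of the ATP synthase had -0.24 ± 0.09. Of 24 genes of cholesterol synthesis and uptake 21 were lower with a median of -0.04.

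**Figure D4:**
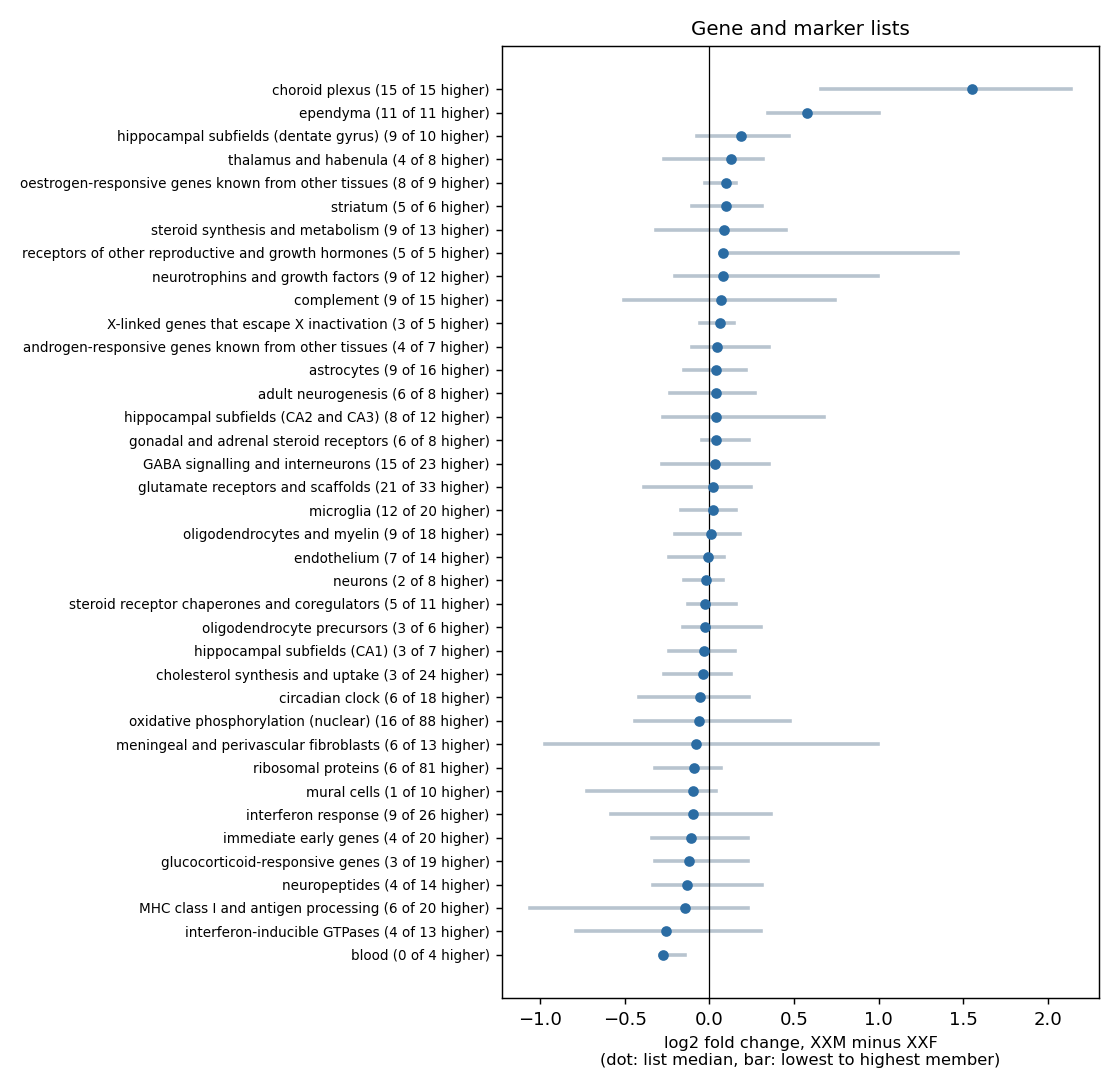
Median log2 fold change of XXM over XXF (dot) and lowest to highest member (bar) for each measured list, with the number of members above 0 in brackets. Choroid plexus (1.55) and ependyma (0.58) stand highest and blood (-0.27) and interferon-inducible GTPases (-0.26) lowest, and most medians lie within 0.1 of 0.

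The largest estimates below 0 moved with the depth of the library. Pcdha8 (-1.93 ± 0.62), Fam151a (-1.40 ± 0.97), Msmp (-1.37 ± 0.99), Myo1h (-1.31 ± 0.48) and Mpp4 (-1.29 ± 0.70) were the 5 genes with the largest estimates, and none passed. With the log2 library total as a covariate they were -0.61, -0.42, -0.35, -0.23 and -0.37.

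Msmp was at 2.35, 2.36, 2.19, 0 and 2.41 CPM in XXF, was listed at 0 in XXM replicates 1 to 4 and was at 2.39 and 2.15 CPM in replicates 5 and 6. Fam151a was at 4.98, 4.72, 5.15, 0.0822 and 4.67 CPM in XXF, at 0.0695, 0, 0 and 0 CPM in XXM replicates 1 to 4, and at 4.88 and 4.35 CPM in replicates 5 and 6. The same 7 of the 23 libraries were at or near 0 for both genes, and they were the 7 deepest, with at least 27355631 counts against at most 25636146 in the other 16. Of these 7, 1 was XXF, 4 were XXM and 2 were XYM. The cut at 7 was taken from the libraries where Msmp was at or near 0, so the count of genes at this cut is not separate evidence for Msmp. At that cut, only these 2 genes of the table separated the 7 deepest libraries from the rest with lower values. With higher values 0 genes did so. Each overlaps a gene on the other strand, Rgp1 for Msmp and Acot11 for Fam151a, and whether a 0 here is a failed estimate was not tested.

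Pcdha8, a protocadherin whose cluster shares exons, was at 9.64 and 9.90 CPM in XXF replicates 2 and 5 and at 0.713 to 2.22 CPM in the other XXF libraries. In XXM it was at 0.657 to 1.61 CPM. Myo1h was at 13.3 and 17.1 CPM in the same 2 XXF libraries and at 2.20 to 3.60 CPM in XXM. These are the 2 shallowest XX libraries, with 10257790 and 12719020 counts, and both genes were also high in XYF replicates 3 and 4. Over all genes, 13 were above all other libraries in the 4 shallowest and 1 was below. The other 3 XXF libraries, with 18192115 to 36078235 counts, were at 2.30 to 3.38 CPM for Myo1h, within the XXM range, and no XXM library had under 21143437 counts. With the library total as a covariate the unadjusted p was 0.255 for Pcdha8 and 0.565 for Myo1h.

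**Figure D5:**
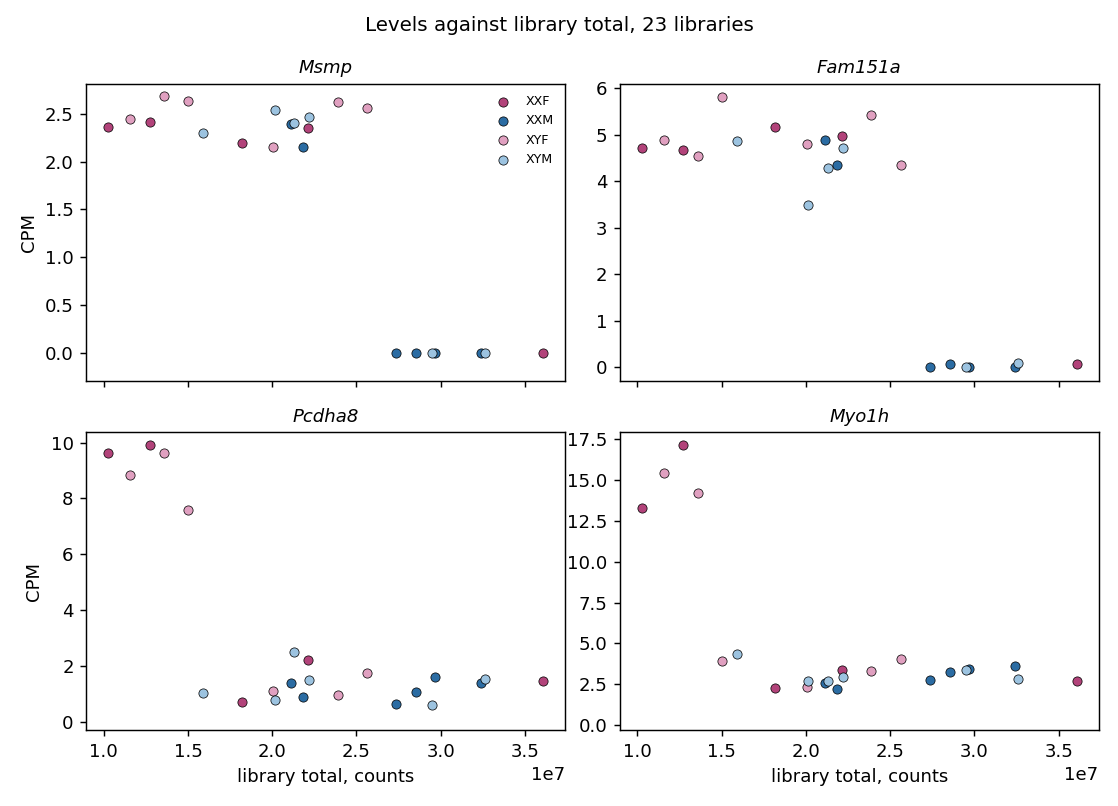
Levels in CPM of 4 genes against the library total in counts, for all 23 libraries coloured by group. Msmp and Fam151a are at or near 0 in the 7 deepest libraries, and Pcdha8 and Myo1h are highest in the 4 shallowest.

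Among the widest gaps between groups that did not overlap were those of Lect1, Epyc, Rhbdf2 and Xrcc4 on the higher side and H2-Q5, Fam43b, Gm4070, Ppp1r35 and Nuak1 on the lower side. Lect1, Epyc and Rhbdf2 met the deposited filter only in XXM and XYM, and H2-Q5 only in XXF. The gaps of Lect1, Epyc, Rhbdf2 and H2-Q5 are therefore partly set by that filter. Epyc, a small proteoglycan, was at 1.08 to 1.53 CPM in XXF and 1.82 to 2.54 CPM in XXM (0.60 ± 0.21), and Rhbdf2, an inactive rhomboid protein, at 1.10 to 1.51 and 1.64 to 2.44 CPM (0.43 ± 0.25). Ppp1r35 was at 4.98 to 6.31 and 3.30 to 4.39 CPM (-0.53 ± 0.15). Nuak1, a kinase related to AMPK, had the narrowest XXF spread of these, 98.2 to 102 CPM, against 76.6 to 90.3 CPM in XXM (-0.23 ± 0.08). Under an exact permutation of 462 assignments of the 11 libraries, 2-sided, the smallest p a single gene can reach is 0.00433, which is far above what adjustment over 13766 genes needs.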

How the data were processed

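Libraries were strand-specific, made from 500 ng of RNA after removal of ribosomal RNA and read for 100 bases from both ends, per the labels' protocols. The authors deposited 1 table of estimated counts per gene, rounded here to whole numbers, and of log2 normalized values, which were not used. Per the file headers, a gene entered the table if 1 or more of the 4 groups had raw values of 20 or more in 100% of samples. This filter used the groups, so genes low in all of them are not analysed here. The build mm10 and the tool DESeq are named in the submitters' processing notes. No aligner or counting program is given in the sources used here. Of 13766 records, 12946 matched GENCODE M21 by symbol and chromosome and 12943 of these in position. The table held 0 value columns without a matching library.

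Counts were tested with edgeR (version 4.0.16) in R (version 4.3.3), with 1 mean for each of the 4 groups over 23 libraries, trimmed-mean normalization and filterByExpr, which removed 0 genes. Tests were 2-sided, with calls at an adjusted p (Benjamini-Hochberg) under 0.05. Standard errors are the fold change over the square root of F. Alternatives were DESeq2 (version 1.42.0), limma (version 3.58.1) voom with and without sample weights, other scaling and filters, the 11 XX libraries alone, covariates, and leaving out each library. The steps were tested on simulated data. Replicate numbers follow accession order. Pairs of XX replicates differed beyond sampling noise (chi-square per gene at least 7.55, Spearman 0.988 to 0.996).

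The compared groups, the gene lists and the naming rule were chosen with earlier results of these data known. The rule named up to 15 genes per direction of smallest p, 5 of largest change at 1 CPM or more, 5 of widest gap, the steroid receptors, 4 members of each list and the 4 genes of smallest p for the difference between XX and XY animals. Lists are described by counts and medians over all measured members, and results of some single genes are not reported here.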

Additional observations from a re-analysis of the deposited data

Results flagged for a closer look

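Among the 98 genes followed, 28 of 196 tests within a group (14.3%) had 1 library set apart from the rest by Dixon's criterion, which compares its gap to the nearest library with the whole range. Chance sets apart about 1 in 20.

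Of the 28, 11 lay in XXF replicate 1, the XXF library rich in choroid plexus RNA. Its values were the high ones of their group: Ttr at 1670 CPM (34.7 to 120 CPM in the other XXF libraries), Kcnj13 at 25.8, Aqp1 at 17.3, Sostdc1 at 13.9, Col8a1 at 19.5, Folr1 at 19.8, Calml4 at 9.06 and Prlr at 43.3 CPM. Osmr at 8.93, Cd55 at 9.33 and Mlf1 at 2.31 CPM were high in the same library.

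Red cell genes were low in XXF replicate 5: Hba-a1 at 42.4 CPM (87.8 to 103 CPM in the other XXF libraries), Beta-s at 41.0 CPM (105 to 114 CPM) and Alas2 at 2.495 CPM (6.10 to 7.01 CPM). XXF replicate 2, the shallowest XX library, was high in Fam43b at 31.2 CPM (22.7 to 23.5 CPM), Gm13306 at 10.5 CPM and Cyp7b1 at 26.5 CPM. XXF replicate 4, the deepest library, was low in Msmp at 0 CPM, Fam151a at 0.0822 CPM and Esam at 12.8 CPM (15.5 to 16.4 CPM). Gbp7 was low in XXF replicate 3 at 5.98 CPM (6.79 to 7.08 CPM).

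In XXM, replicate 5 was high in Rhbdf2 at 2.44, Dhx58 at 2.06 and H2-K1 at 33.5 CPM (23.2 to 26.8 CPM). Replicate 3 was high in Ift74 at 38.8 CPM and Stxbp6 at 185 CPM (124 to 144 CPM) and low in Cyp46a1 at 108 CPM (125 to 131 CPM). Replicate 2 was high in Gm13306 at 8.48 CPM.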

How the results depend on the processing

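In XX animals 0 genes were called in 22 of 23 alternative fits, and DESeq2 called 1, Fam43b. Leaving out 1 XX library also called 0, with 561 (without XXM replicate 3) to 1416 (without XXF replicate 5) genes at an unadjusted p under 0.05, and 671 without XXF replicate 2. The weighted limma fit had 1766 and the fit without Ttr-rich libraries 225. For the difference between XX and XY animals, leaving out 1 library called 0 to 3 genes. Sign changes, none of a called value, were as follows. Pgrmc1 was -0.0016 with DESeq2 size factors and -0.0019 in DESeq2. With a covariate for the choroid plexus score 4 of the larger estimates changed sign: Ttr from 1.76 to -0.136, Kcnj13 from 2.14 to -0.120, Aqp1 from 1.96 to -0.169 and Prlr from 1.47 to -0.105. Pgr was 0.0064 and Gbp6 -0.0098 there. With the Ttr class as a term Xist was 0.0307 and Pgr 0.0056. Without the Ttr-rich libraries Kcnj13 was -0.0299 and Prlr -0.0272. With the log2 library total as a covariate Xist was 0.33. With 1 XX library left out, Pgrmc1 ran from -0.0497 to 0.075, Pgrmc2 from -0.0067 to 0.0556, Pgr from -0.0811 to 0.0626, Esr1 from -0.18 to 0.17, Gpr30 from -0.0695 to 0.17 and Xist from -0.13 to 0.0074. List medians that moved beyond the spread of the list score were those of the choroid plexus, interferon response, GTPase and neuropeptide (-0.01) lists with the choroid plexus score. Without the Ttr-rich libraries the moved medians were oligodendrocyte precursors (-0.22), oestrogen-responsive genes (-0.02), glutamate receptors (-0.06) and neuropeptides (0.03). With the library total, receptor coregulators moved to 0.05. The cause was not tested. The Ttr class, the fit without Ttr-rich libraries, the fit without XYF replicate 4 and the library total were chosen after seeing the data. No paired analysis was possible because the labels give animal numbers that no 2 groups share. With 5 and 6 libraries of unequal depth, a p above the threshold does not show that genes did not differ.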
